A study of Mus musculus with 2 samples.

Results

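Hedgehog signalling was described through 9 genes taken by symbol from the known pathway: the ligands Shh, Ihh and Dhh, the receptor Ptch1, the signal transducer Smo, the ligand-binding antagonist Hhip and the transcription factors Gli1, Gli2 and Gli3. They were taken from 43346 gene identifiers, of which 21474 belong to protein-coding genes, and each symbol matched 1 identifier. Intestine was taken whole from healthy embryos of the mouse strain B6NCrl at embryonic day 16.5, males and females pooled. Each library was made from 10 ng of total RNA, with a size range above 200 nt and spike-in RNAs added. The only group holds 2 libraries, replicate 1 and replicate 2, from separate pools of embryos listed under 1 donor identifier. Replicate 2 came from 41 embryos, while for replicate 1 the labels mention a pool without its size. No treated or mutant animals belong to the group, so the comparisons are between genes within the tissue and between the pools.

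Hedgehog proteins are secreted signals. In the gut the epithelium releases them and the mesenchyme beneath receives them, which shapes villi, smooth muscle and stroma. Without ligand, PTCH1 keeps SMO inactive and GLI proteins, GLI3 above all, are processed into repressors. With ligand bound, SMO is released and full-length GLI proteins activate genes that include Gli1, Ptch1 and Hhip themselves, so these 3 are commonly read as pathway output while PTCH1 and HHIP also restrain the signal.

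The libraries held 42040766 and 41480301 expected counts in replicates 1 and 2, which are estimated reads not yet normalised. Levels are in TPM, which corrects for transcript length and scales each library to the same total, and means carry the SD of the 2 libraries (n = 2). Tissue identity was read from marker genes: 6 of 6 epithelial, 6 of 6 mesenchymal and 6 of 6 smooth muscle genes were detected, meaning a TPM of at least 1 in both libraries. Epithelial markers summed to 3356 TPM in replicate 1 and 3376 in replicate 2, from Cldn7 down to Cdx2, mesenchymal markers to 3816 and 3945, from Sparc down to Dpt, and smooth muscle markers to 4556 and 4415, from Actg2 down to Myh11. None of these 18 was at 0. The stomach list had 3 of 6 detected, with Muc5ac and Gif at 0, while the pancreas list had 5 of 6 and summed to 4288 and 5557 TPM, from Pnliprp1 at 2152 ± 251 down to Pnlip at 0.310 ± 0.0141.

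The ligands are close paralogs, so their reads could in principle be confused. Stretches of 90 coding bases were compared in reading frame, without gaps and inside single exons, lined up from short words shared by all 3 genes. Of these, the stretch most alike in all 3 lies in the part that encodes the signalling domain. It is shown to let the eye judge how far the genes differ. Capitals mark the 69 bases (76.7%) that are the same in Ihh, Shh and Dhh, and lower case marks the rest. All 3 genes lie on the minus strand, and the mm10 positions are chr1:74948335-74948424 for Ihh, chr5:28461353-28461442 for Shh and chr15:98894844-98894933 for Dhh.
Ihh: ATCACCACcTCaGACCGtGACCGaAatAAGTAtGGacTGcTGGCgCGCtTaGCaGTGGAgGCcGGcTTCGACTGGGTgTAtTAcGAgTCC
Shh: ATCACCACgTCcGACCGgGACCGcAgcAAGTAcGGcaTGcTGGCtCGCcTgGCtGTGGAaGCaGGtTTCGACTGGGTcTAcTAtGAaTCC
Dhh: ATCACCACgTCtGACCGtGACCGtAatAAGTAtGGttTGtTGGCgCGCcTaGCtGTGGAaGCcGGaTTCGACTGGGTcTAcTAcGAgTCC
The differences are scattered through the stretch. Over the whole coding sequence, aligned identity was 70.5% between Ihh and Shh, 65.9% between Ihh and Dhh and 72.0% between Shh and Dhh. The longest run shared exactly by any pair of these transcripts was 17 bases, and no window of 100 bases was shared.

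Of the ligands, Ihh stood far above the others. Ihh (ENSMUSG00000006538.10, chr1:74945315-74951672), whose product is the main hedgehog of villus epithelium, had 1459 counts and 21.6 TPM in replicate 1 and 1562 counts and 23.8 TPM in replicate 2, a mean of 22.7 ± 1.58. That level lies at percentile 73.4 of protein-coding genes. Shh (ENSMUSG00000002633.3, chr5:28456815-28467256), which in the gut is linked to the progenitors between villi, had 2.41 and 2.45 TPM, the closest agreement between libraries of any member. Its counts were 183.87 and 181.46. Dhh (ENSMUSG00000023000.4, chr15:98891152-98898540), known from Sertoli cells, Schwann cells and endothelium, had 0.890 TPM in replicate 1 and 1.56 TPM in replicate 2. Ihh thus made up 86.2% ± 0.810 of summed ligand TPM, Shh 9.24% ± 0.624 and Dhh 4.59% ± 1.43. In whole tissue, fewer cells that make a transcript and less transcript per cell cannot be told apart.

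Pairs of genes were called apart when the log2 ratio had 1 sign in both libraries and its mean exceeded 3 SD. No p-value accompanies these calls, because an exact sign-flip test on 2 libraries cannot go below 0.5 (2-sided). Ihh and Dhh were apart at a log2 ratio of 4.27 ± 0.47, a 19.2-fold difference, with 4.60 in replicate 1 and 3.93 in replicate 2. Shh exceeded Dhh by 2.06-fold in the mean, with log2 ratios of 1.44 and 0.65, and was not called apart because the libraries disagreed on the size. The intervals of TPM that the authors deposited, whose level is not stated in the files, were apart for Shh and Dhh in both libraries.

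**Figure D1:**
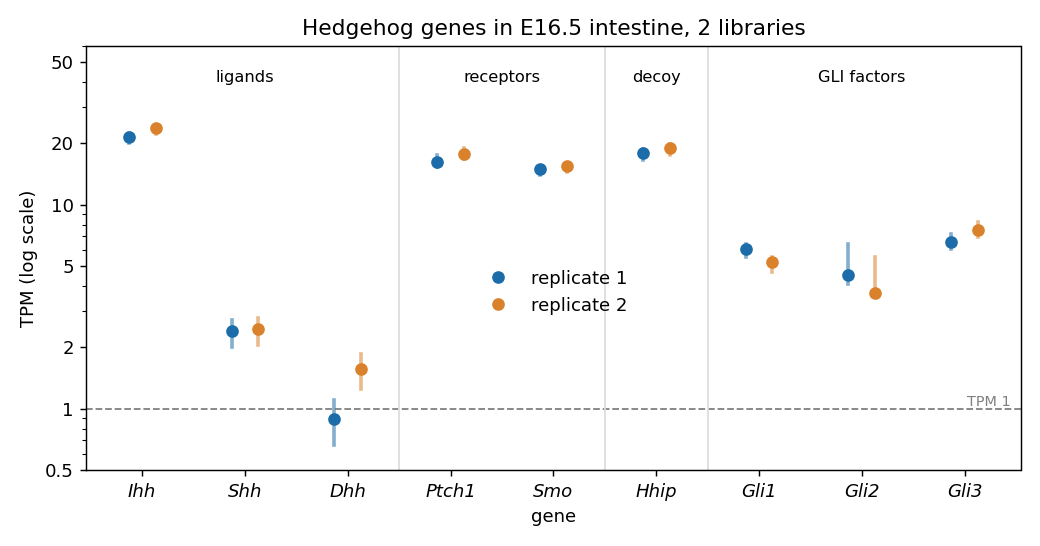
TPM (log scale) of the 9 hedgehog genes in replicate 1 (blue) and replicate 2 (orange), with lines for the deposited intervals of posterior TPM and a dashed line at a TPM of 1. Ihh, Hhip, Ptch1 and Smo sit between 15.0 and 23.8 TPM, the GLI factors between 3.71 and 7.55, and Dhh crosses the line between the libraries.

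Of the 9 members 8 were detected, against 62.0% of protein-coding genes (background). The exception was Dhh, which missed the limit in replicate 1, so that replicate 2 alone counts 9. In sum the members held 91.3 TPM in replicate 1 and 96.4 in replicate 2. Only Ihh and Hhip exceeded the median detected protein-coding gene, 17.0 and 17.2 TPM, in both libraries, so these were genes of moderate to low abundance. From high to low the order of mean TPM was Ihh, Hhip, Ptch1, Smo, Gli3, Gli1, Gli2, Shh and Dhh. Of the 8 neighbouring pairs in that order, Ptch1 and Smo, Gli3 and Gli1, and Shh and Dhh did not differ beyond their spread. The gap between Smo and Gli3 was 2.16-fold (log2 1.11 ± 0.12), that between Gli2 and Shh 1.69-fold (log2 0.76 ± 0.22), and that between Ihh and Hhip 1.23-fold (log2 0.30 ± 0.05).

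Receptor and transducer were nearly balanced. Ptch1 (ENSMUSG00000021466.7, chr13:63508328-63573598) had 3088 counts and 16.2 TPM in replicate 1 and 3327 counts and 17.7 TPM in replicate 2. Smo (ENSMUSG00000001761.6, chr6:29735503-29761365) had 15.0 and 15.4 TPM, so the ranges did not overlap, but the log2 ratio of Ptch1 to Smo, 0.15 ± 0.06, was within 3 SD. With protein-coding transcripts alone, an alternative chosen after seeing the data, the ratio turned to -0.14, so no order of these genes can be given.

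Hhip (ENSMUSG00000064325.3, chr8:79965851-80058006), a membrane protein that binds hedgehog ligands and keeps them from PTCH1, reached 17.99 and 18.98 TPM in replicates 1 and 2. It was 1.09-fold above Ptch1 (log2 0.13 ± 0.03). The rule called this pair apart, but the deposited intervals overlapped, and without division by length the ratio was -0.68. The level of Ptch1 over Gli1, both targets of the pathway, was steadier in direction, at log2 1.59 ± 0.24 (3.01-fold), with 1.42 in replicate 1 and 1.76 in replicate 2.

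**Figure D2:**
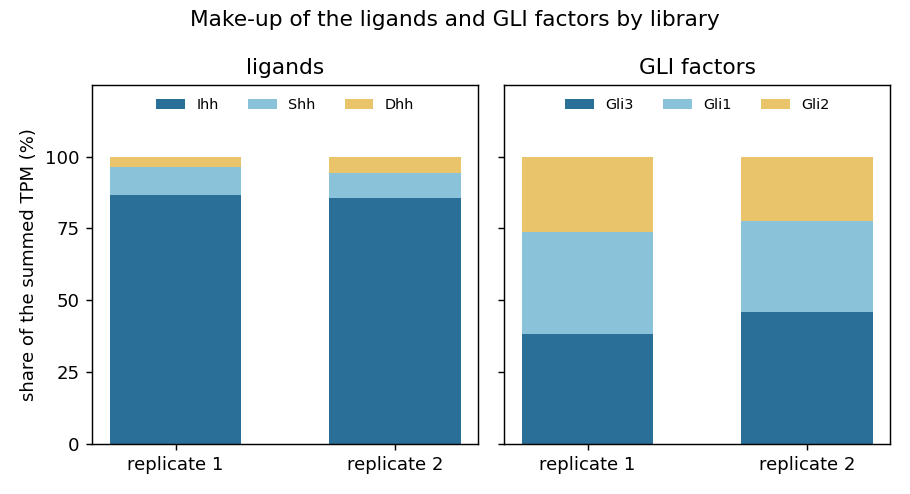
Share of summed TPM (%) held by each gene among the ligands and among the GLI factors, with replicate 1 left and replicate 2 right in each panel. Ihh holds 86.7% and 85.6% of ligand TPM, and no GLI factor holds more than 45.8%.

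The GLI factors share a zinc finger region that binds DNA. The 90 coding bases most alike in all 3, sought in the same way as for the ligands, lie in it. They are shown because the finding on the levels of the GLI factors depends on reads being told apart. Capitals mark the 73 bases (81.1%) common to Gli1, Gli2 and Gli3. The mm10 positions are chr10:127333691-127333780 for Gli1 and chr1:118842090-118842179 for Gli2, both on the minus strand, and chr13:15720073-15720162 for Gli3 on the plus strand.
Gli1: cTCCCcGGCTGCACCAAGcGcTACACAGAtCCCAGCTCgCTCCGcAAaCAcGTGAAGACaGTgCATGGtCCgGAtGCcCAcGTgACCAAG
Gli2: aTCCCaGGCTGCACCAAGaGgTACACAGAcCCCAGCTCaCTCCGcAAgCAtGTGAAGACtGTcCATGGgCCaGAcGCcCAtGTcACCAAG
Gli3: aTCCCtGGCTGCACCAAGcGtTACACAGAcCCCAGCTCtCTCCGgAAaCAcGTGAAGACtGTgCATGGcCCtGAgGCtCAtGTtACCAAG
The longest run shared exactly between transcripts was 25 bases, between Gli2 and Gli3, and again no window of 100 bases was shared. Coding identity was 68.9% for Gli1 and Gli2, 67.4% for Gli1 and Gli3 and 67.8% for Gli2 and Gli3.

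All 3 GLI factors were detected, between 3.71 and 7.55 TPM. Gli1 (ENSMUSG00000025407.6, chr10:127329882-127341974), an activator and a direct target of the pathway, had 638 counts and 6.08 TPM in replicate 1 and 532 counts and 5.22 TPM in replicate 2. Gli3 (ENSMUSG00000021318.11, chr13:15463235-15730026), the main source of GLI repressor, had 6.57 and 7.55 TPM, and Gli2 (ENSMUSG00000048402.10, chr1:118834132-119053619), the main primary activator, had 4.54 and 3.71 TPM. Gli3 held 42.02% ± 5.37 of the GLI sum, Gli1 33.5% ± 2.61 and Gli2 24.5% ± 2.76. Gli1 and Gli3 were not apart (log2 -0.32 ± 0.30), and neither were Gli3 and Gli2 (log2 0.78 ± 0.35).

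The level of Gli2 depended on which transcripts its reads were assigned to. Its counts were 603 in replicate 1 and 635 in replicate 2, yet its TPM was higher in replicate 1. The full-length transcript Gli2-201 alone had 3.04 and 3.37 TPM, with replicate 2 higher. The short noncoding Gli2-202, with 9.76 and 1.70 counts, added 1.24 TPM in replicate 1 and 0.220 TPM in replicate 2, and the effective length of the gene was accordingly 4514 bases in replicate 1 and 5993 in replicate 2. Gli2-201 therefore took 67.0% of Gli2 in replicate 1 and 90.8% in replicate 2. Gene TPM in replicate 2 lay below its own deposited interval of 3.93 to 5.55, which belongs to a posterior mean of 4.69. Gli1 exceeded Gli2 by 1.37-fold in gene TPM (log2 0.46 ± 0.05, called apart), while with protein-coding transcripts alone the log2 ratio was 0.79 and not apart, and in counts without length it was -0.09.

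Gli3 showed a similar shift. Its long transcript Gli3-201 had 4.95 TPM in replicate 1 and 4.65 in replicate 2, and the shorter coding Gli3-202 had 0.760 and 1.86 TPM, with deposited intervals of 0.423 to 1.14 and 1.27 to 2.41 that did not overlap. The share of Gli3-201 was 75.3% in replicate 1 and 61.6% in replicate 2. Gli3 counts went the other way from its TPM, at 1289.08 in replicate 1 and 1257.29 in replicate 2. In counts scaled by TMM, a scaling on the bulk of genes that takes no account of length, the log2 ratios of replicate 1 over replicate 2 were -0.13 for Gli2 and -0.02 for Gli3, against 0.28 and -0.20 in TPM.

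Among the 9 members, 4 have 1 transcript in the tables (Shh, Dhh, Smo and Gli1), and in the 5 others the same transcript led in both libraries. Ihh-201 held 93.3% ± 0.156 of Ihh. Hhip-201 held 79.7% ± 3.42 of Hhip, with the noncoding Hhip-202 at 17.8% and 22.7%. Ptch1-202 held 79.4% ± 0.297 of Ptch1, followed by Ptch1-204, annotated as a target of nonsense-mediated decay, at 12.5% in both libraries. The leading Ptch1 start lies 1200 bases inside that of Ptch1-201, which had 0 and 0.230 TPM, and 8925 bases inside that of Ptch1-204. Alternative first exons of Ptch1 are known to give receptors with different amino termini. The shares here are of whole transcripts, and reads over the first exons were not examined.

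**Figure D3:**
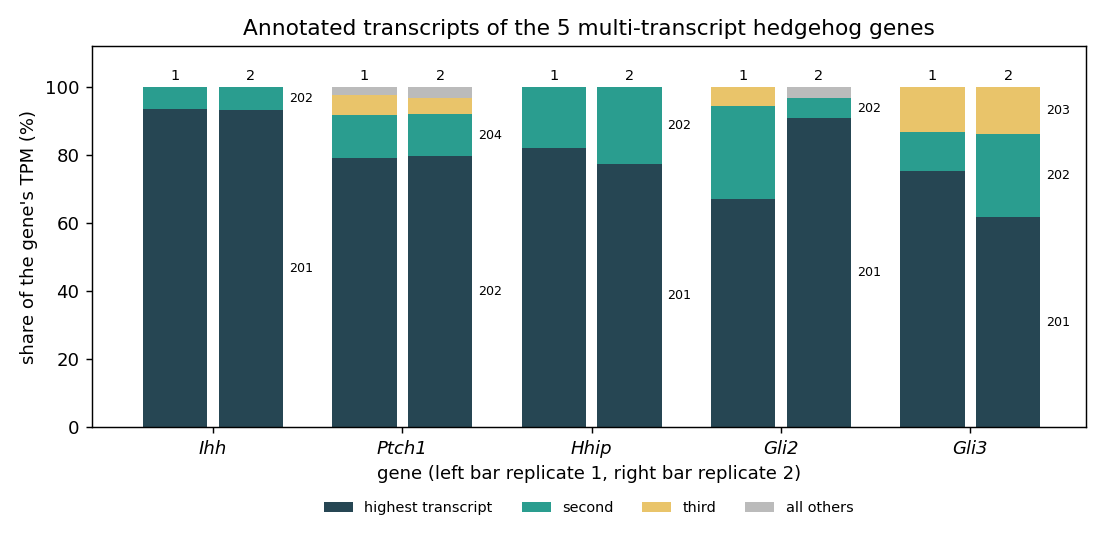
Share of gene TPM (%) held by the highest, the second, the third and all other annotated transcripts of the 5 members with several transcripts, with replicate 1 as the left and replicate 2 as the right bar. Numbers beside the bars are transcript suffixes; the leading share moves most in Gli2 (67.0% and 90.8%) and Gli3 (75.3% and 61.6%), and least in Ihh.

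Counts of 6 members were whole numbers in both libraries, and those of Shh, Gli3 and Hhip were not. Shh had 183.87 and 181.46 expected counts. Added to those of the 2 opposite-strand noncoding genes that overlap its exons and have values here, Gm26894 (91.7 and 80.93) and 9530036O11Rik (33.43 and 18.6), the sums were 309 and 280.99, whole within 0.02. Likewise Gli3 with the opposite-strand Gm6556 summed to 1314 and 1271, and Hhip with Gm27820 to 2044 and 1993. Fractions of reads were thus divided between genes on opposite strands, so strand did not separate them in these tables. The TPM of Shh, its agreement between libraries and its share of ligand TPM rest on this division. In GENCODE M21 the antisense gene Gm49442 shares 1107 exon bases with Dhh and Gm47200 shares 265 with Gli1, and neither has a value here, so counts of Dhh and Gli1 may include reads from them. Rhebl1 shares 546 exon bases with Dhh on the same strand, also in M21, and had 307 and 272 counts.

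Between the pools, differences were small for most members. On the scale of log2(TPM + 0.1), 0 members lay beyond 2-fold, against 1.21% of the 13509 protein-coding genes that averaged 1 TPM or more (background), 0.577% higher in replicate 1 and 0.629% higher in replicate 2. Beyond 1.5-fold lay 1 member, Dhh, against 3.77% of those genes (background), 1.55% higher in replicate 1 and 2.22%, like Dhh, higher in replicate 2. Its log2 ratio of replicate 1 over replicate 2 was -0.75, larger in size than that of 97.8% of the genes. It had 59 counts in replicate 1 (95% exact Poisson interval 44.9 to 76.1) and 101 in replicate 2 (82.3 to 122.7), and its deposited TPM intervals were apart too, as they were for 25.4% of the genes (background). The Poisson intervals cover counting error only, and intervals of both kinds come from a single library each, without the spread between pools. For the remaining 8 members the log2 ratios ran from -0.20 in Gli3 to 0.28 in Gli2, and none had intervals apart. By plain TPM 7 members were higher in replicate 2 and 2 in replicate 1, while 46.7% of the genes were higher in replicate 2.

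**Figure D4:**
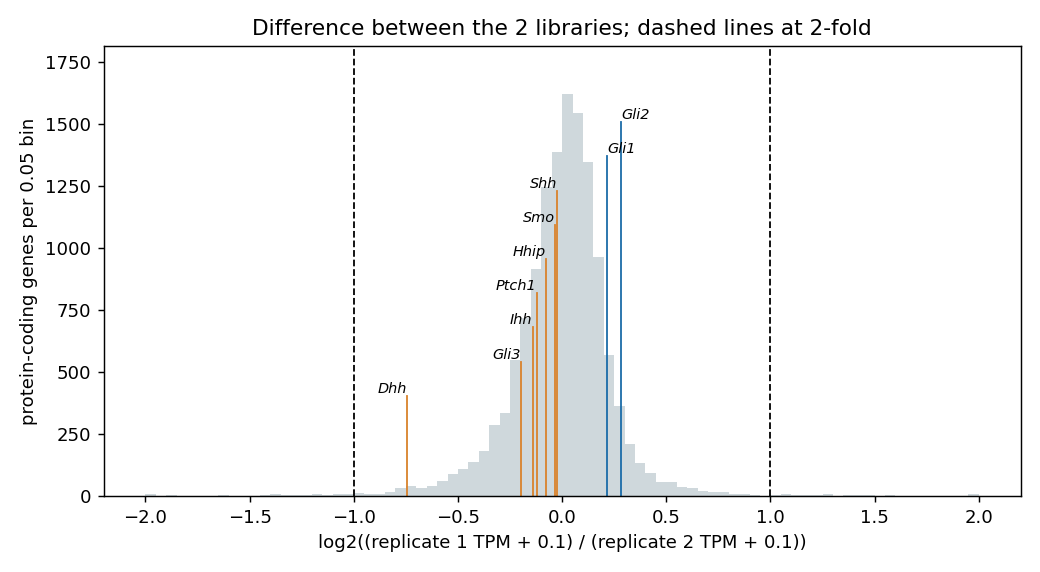
Number of protein-coding genes per bin of log2((replicate 1 TPM + 0.1) / (replicate 2 TPM + 0.1)) for 13509 genes, with values beyond 2 placed in the outer bins, lines at the 9 hedgehog genes (blue higher in replicate 1, orange higher in replicate 2, line height without meaning) and dashed lines at 2-fold. The members lie inside the dashed lines, and Dhh at -0.75 is the farthest from 0.

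Cells known for Dhh have markers of their own in the tables. Glial and Schwann cell genes had 6 of 7 detected and summed to 68.3 TPM in replicate 1 and 68.9 in replicate 2, led by Fabp7, with Sox10 at 4.36 and 4.43 and with Gfap lowest, at 0.320 and 0.0700. Within that list 4 genes were higher in replicate 1 and 3 in replicate 2. Erbb3 had 25.3 and 29.8 TPM and Fabp7 had 31.2 and 28.0, so the near-equal sums hide shifts in opposite directions. Gfap differed by 2.47-fold on 24 and 5 counts, below the minimum mean of 1 TPM, and its deposited intervals overlapped. Endothelial genes had 5 of 5 detected and summed to 183 and 178 TPM, from Egfl7 down to Tek. Of these, 2 were higher in replicate 1, among them Egfl7 (101.18 and 93.4 TPM), which weighs most in the sum. The other 3 were higher in replicate 2, among them Cdh5 (15.21 and 16.85) and Kdr (16.65 and 18.38). Of 4 Sertoli cell genes only Inha, which other tissues also express, was detected, at 6.27 and 5.65, while Amh had 4 and 3 counts, Dmrt1 1 and 1, and Fshr 0. Enteric neuron genes, 4 of 4 detected from Uchl1 down to Elavl4, summed to 196 and 172 TPM. Pancreatic genes were higher in replicate 2 in 5 of 6 cases, and the part of any of these cell types in the Dhh difference was not tested. For Shh, which hindgut and stomach express strongly in the embryo, the hindgut list summed to 5.88 and 2.20 TPM, with 1 of 4 detected (Hoxb13, 4.39 and 1.64) and Hoxd13 lowest, and the stomach list to 10.0 and 9.48. Shh differed by 1.02-fold, and the part of hindgut or stomach in its level was not tested.

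Making and releasing a ligand takes further proteins, and 4 of 5 genes of that list were detected. HHAT, the enzyme that attaches palmitate to hedgehogs, was at 8.24 and 7.48 TPM, and Disp1, which exports the lipid-bearing ligand, at 6.76 and 7.31. The SCUBE proteins help carry ligand away from the cell: Scube2 was at 2.12 and 2.45 TPM, Scube1 at 2.09 and 2.33 and Scube3 at 0.970 and 1.03. None of the 5 had intervals apart between libraries, against 25.4% of genes tested (background).

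Co-receptors that help ligand reach PTCH1 were detected in 3 of 3 cases. Gas1 led at 18.8 TPM in replicate 1 and 27.2 in replicate 2, with intervals apart and a difference of 1.45-fold, larger than in 95.4% of genes tested. Boc stood at 7.16 and 7.51 and Cdon at 4.03 and 4.66. Gas1 was 3.08-fold above Boc (log2 1.62 ± 0.33), and Cdon was below Boc with a log2 ratio of -0.76 ± 0.10, both apart. Of 3 surface modulators 2 were detected. Glypican Gpc3, which competes with PTCH1 for ligand, reached 436 ± 4.23 TPM, and Gpc6 had 22.02 and 19.94 TPM, while Gpc5 was at 0.120 and 0.290.

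Of 10 genes in the list of cytoplasmic GLI regulators, which also holds a receptor, 9 were detected. The list median was 18.98 TPM in replicate 1 and 17.7 in replicate 2. Spop, which hands GLI proteins to a ubiquitin ligase, stood at 98.4 ± 13.7, Prkacb, a catalytic subunit of protein kinase A, at 30.2 ± 2.27, and the orphan receptor Gpr161 lowest at 0.635 ± 0.0778. Sufu, the binding partner that holds GLI in the cytoplasm, was at 17.2 and 17.5 TPM and exceeded Gli3 by 2.46-fold (log2 1.30 ± 0.13, apart). Prkaca, the other catalytic subunit, had 1348 counts and 20.9 TPM in replicate 1 and 4092 counts and 65.3 TPM in replicate 2. This difference of 3.12-fold was larger than that of 99.7% of genes tested. Prkaca was the only 1 of 42 other pathway genes tested to pass 2-fold, against 1.21% of all genes tested (background). It has a single transcript in the tables.

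Vertebrate hedgehog signalling runs through the primary cilium, and 12 of 12 cilium genes were detected with a median of 7.71 and 7.70 TPM. The kinesin subunit Kif3a was highest at 32.0 ± 4.07, then Rab23 at 14.1 ± 0.339 and the phosphatase Inpp5e at 13.1 ± 0.629, and Tctn1 of the ciliary gate was lowest at 2.99 ± 0.0636. None lay beyond 2-fold between the libraries, against 1.21% of genes tested (background).

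Genes that respond to hedgehog in gut mesenchyme were all 6 detected. Foxf1, a forkhead factor of gut mesenchyme, was at 74.3 and 75.3 TPM, and its relative Foxf2 at 11.7 and 9.74. Bmp4, a signal of the mesenchyme under the villi, stood at 57.1 and 51.4, Osr1 at 22.5 and 20.0, and Myocd, which switches on smooth muscle genes, at 16.9 and 20.2. Foxl1, which marks cells beneath the epithelium, was lowest at 4.43 and 4.92 TPM. Foxf1, Bmp4, Osr1, Myocd and Foxf2 lay above Gli1, 6.08 and 5.22 TPM, in both libraries. Across all 8 lists, 41 of the 47 other pathway genes were detected, against 62.0% of protein-coding genes.

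**Figure D5:**
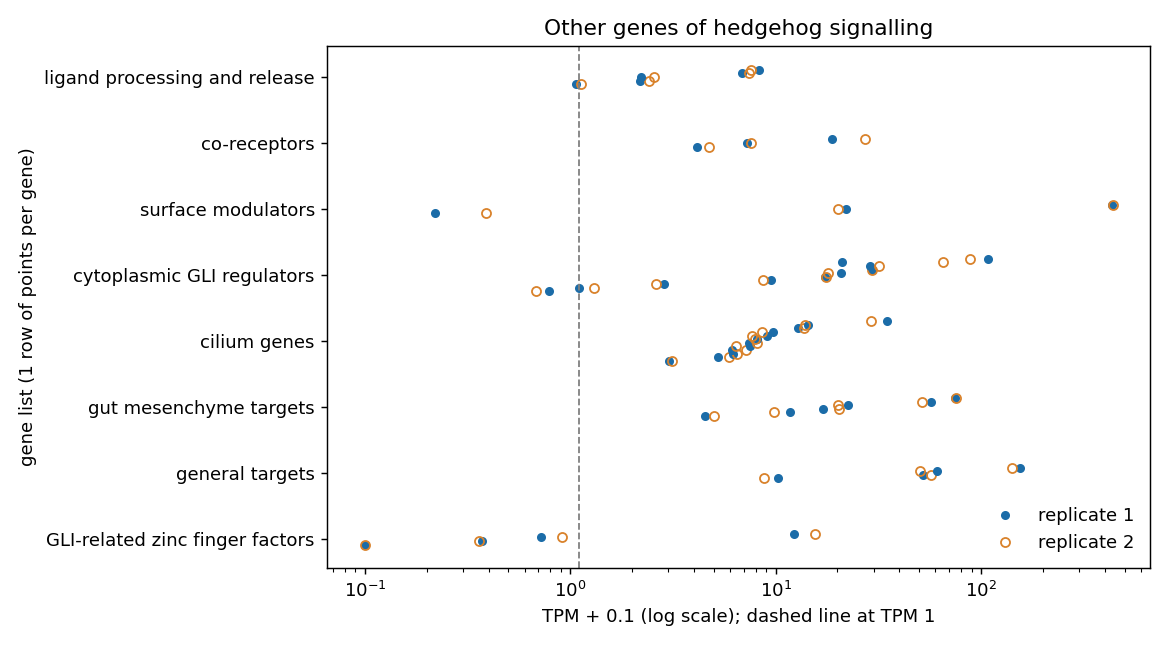
TPM + 0.1 (log scale) of the 47 other genes of hedgehog signalling by list, with 1 height per gene, filled blue points for replicate 1, open orange points for replicate 2 and a dashed line at a TPM of 1. Most pairs of points nearly coincide; Prkaca, at 20.9 and 65.3 TPM among the cytoplasmic regulators, is the widest pair right of the line, and Zic2 lies at 0.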

How the data were processed

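Reads were assigned to GENCODE M4 transcripts on mm10, per the file headers and the accompanying text. No source used here names the aligner, the quantifier or the strandedness. The expected counts deposited by the authors are estimated reads per feature, with shared reads divided. The TPM values deposited by the authors divide these counts by effective length (length minus 99 where a member has 1 transcript) and bring every library, with its spike-ins, to 1 common total. The FPKM values deposited by the authors were read but not used for results. The percent values deposited by the authors say how much of a gene's TPM each transcript holds.

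Symbols, types and coordinates came from GENCODE M21 (mm10), which matched 42462 of 43346 identifiers by Ensembl number. Of 29 transcripts of the members, 28 were in M21 and 22 had the same length there. Among those shorter than in M21 were Hhip-201 (4582 against 9074 bases), Dhh-201 (2363 against 4242), Gli1-201 (3665 against 4057) and Shh-201 (2692 against 2847). The TPM values of these genes rest on the shorter lengths. Coding sequences came from M21. The 26248 features with numeric identifiers, which name no gene, were left out. They took 0.000147% and 0.000157% of the counts.

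With 2 libraries of 1 group no test between conditions exists, and p-values are not given. Values are means with SD, log2 ratios of TPM with no pseudocount for pairs, and log2 ratios with a pseudocount of 0.1 TPM between libraries. Scaling alternatives used edgeR 4.0.16 and DESeq2 1.42.0 in R 4.3.3 on counts rounded to whole numbers, with at least 10 counts in both libraries. Other work used Python 3.11.15, numpy 2.4.6, pandas 2.3.3, scipy 1.17.1 and Biopython 1.88.

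Members, lists, pairs and thresholds were chosen with earlier results of these data known. Named genes were the members, the pair genes, all of lists of up to 6 genes or the 3 highest and the lowest, and the extremes and zeros of marker lists. A few planned list members and the results that need them are not reported here. Likeness of pattern between genes was not computed from 2 libraries.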

Additional observations from a re-analysis of the deposited data

How the results depend on the processing

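No paired analysis was possible because only 1 group was sequenced. The alternatives were other TPM minimums, pseudocounts, units, scalings, filters and each library left out. Counts without length moved the share of Ihh to 85.2% and of Gli3 to 51.4% of their families. They turned Hhip over Ptch1 to log2 -0.68 and Gli1 over Gli2 to -0.087, and they set apart Ptch1 over Smo (0.98), Gli1 over Gli3 (-1.13) and Gli3 over Gli2 (1.04). By its construction this alternative leaves long transcripts with more reads. For Gli3 over Gli2, effective length was 6666 against 4514 bases in replicate 1, but 5831 against 5993 in replicate 2. With posterior mean TPM, Hhip over Ptch1 (0.093) was no longer apart. By deposited intervals, Hhip over Ptch1 (0.13) and Gli1 over Gli2 (0.46) were not apart and Shh over Dhh (1.04) was. With protein-coding transcripts only, chosen after seeing the data, Ptch1 over Smo turned to -0.14, Hhip over Ptch1 (0.10) and Gli1 over Gli2 (0.79) lost the call, and Gli3 over Gli2 (0.90) gained it. For all these alternatives the cause of the changes was not tested. Genes beyond 2-fold numbered 163, and 90 with a pseudocount of 1, 69 with a minimum mean TPM of 5 and 528 with no filter, against 509 beyond 1.5-fold, where 1 member lay. Scaling by TMM, DESeq2 size factors or spike-ins moved the median gene by under 0.1 and left Dhh at -0.82 to -0.84, but placed Gli2 at -0.13 to -0.15, on the other side of 0 from its TPM value. With either library left out no pair changed direction, and members detected were 8 or 9. Depth limits Dhh most, with 59 and 101 counts.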

Other observations

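Zinc finger factors related to the GLI genes were lower than the GLI factors except for 1: of 4, Glis2 alone was detected, at 12.2 TPM in replicate 1 and 15.5 in replicate 2. Glis3 stood at 0.620 and 0.810 TPM and Glis1 at 0.270 and 0.260. By posterior mean TPM, Glis3 had 1.17 and 1.44 and Glis1 had 0.600 and 0.630, so that 2 of the 4 genes were detected, as they were with a minimum of 0.5 TPM. Zic2 had no count, where a count of 0 allows up to 3 (1-sided 95% limit). Genes that hedgehog raises in many tissues were all 4 detected. The cyclins Ccnd2 and Ccnd1 stood at 148 ± 9.33 and 55.7 ± 7.72 TPM, the transcription factor gene Mycn at 54.3 ± 3.35 and the survival gene Bcl2 at 9.41 ± 1.05. All 4 had deposited intervals apart between libraries, with Mycn higher in replicate 2 and the others higher in replicate 1, by at most 1.22-fold. Intervals were apart in 25.4% of all genes tested, and each comes from a single library, without the spread between pools.

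Promoters of 7 of the 9 members were in the RefSeq table for GRCm38.p6, each a window of 300 bases. The GLI recognition motif, GACCACCCA, was searched on both strands. It was in the window of 0 of the 7 members and 0 of the 35 other pathway genes in the table, and in 83 of all 32851 windows (0.253%). The windows begin from 1 start per entry: for Ihh, Dhh and Gli2 it is the start of the leading transcript, for Hhip it lies 2 bases away, for Smo 197, for Gli3 257 and for Ptch1 1200. The absence of these letters from a window says nothing of GLI binding.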
